A study of Mus musculus with 12 samples.

Results

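Polyadenylated RNA of mouse embryonic fibroblasts (MEFs) lacking Ing1 was set directly against that of MEFs labelled as lacking Gadd45a, without any wild type library. The libraries were chosen by their titles, and 6 of the 12 libraries of the series entered: 3 titled Ing1 knockout (Ing1 KO) and 3 titled Gadd45a knockout. All 6 came from primary fibroblasts of male C57BL/6N embryos, taken at E15.5 from crosses between Ing1-/- mice and Gadd45a-/- mice and grown to passage 4 and 80% confluency. Neither group received a treatment, and the labels name no Cre driver, clone or pool of animals. No label tells if a group's 3 libraries are separate embryos or cultures of 1 embryo, so p-values measure only the spread between these libraries. With no wild type in the comparison, a gene that is lower in Ing1 KO may equally be called higher in the other group, and every direction below is given as Ing1 KO relative to the libraries labelled Gadd45a KO.

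ING1 is a chromatin protein whose PHD finger binds a histone methyl mark found at active gene starts, and it serves as a subunit of the Sin3 histone deacetylase complex. GADD45A is a small stress-induced protein that is switched on by p53 and has been tied to DNA repair and to active DNA demethylation, in which TET enzymes oxidise methylated cytosine and repair enzymes replace it. ING1 has been reported to bring GADD45A to chromatin. Setting the single losses side by side asks how far the 2 mutant fibroblast states differ from each other.

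Gene counts per library ran from 38763431 to 41911611 in Ing1 KO and from 38110261 to 42852059 in the libraries labelled Gadd45a KO. CPM values are counts divided by the scaled library total, in the usual unit, and a gene was called when its edgeR adjusted p was under 0.05 over all genes tested. On the main principal component, which held 45.4% of the variance, Ing1 KO lay between 14.7 and 29.7 and the other group between -27.4 and -17.6. Replicate 1 of the libraries labelled Gadd45a KO stood apart on the next component (22.6% of the variance), at 25.9. Defining fibroblast genes were abundant in every library, with 13 of 13 markers tested and a summed level of 69170 to 77264 CPM in Ing1 KO and 76569 to 84119 CPM in the other group. Macrophage and blood markers were present too, and 22 of 25 were tested. Their sum was 518, 455 and 807 CPM in Ing1 KO replicates 1 to 3 and 181, 702 and 686 CPM in the libraries labelled Gadd45a KO, so the library that stood apart was also the lowest. None of the 22 was called, and in none were the groups without overlap. Lyz2, the macrophage lysozyme, stood at 164, 127 and 197 CPM against 40.3, 174 and 167 CPM. In bulk RNA, fewer cells of a type and less RNA per cell cannot be told apart.

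Ing1 RNA was low in the Ing1 KO libraries, whereas Gadd45a RNA was highest in the libraries labelled as lacking Gadd45a. Ing1 (ENSMUSG00000045969, chromosome 8) stood at 1.01, 1.24 and 1.41 CPM in Ing1 KO and at 49.9, 54.5 and 52.1 CPM in the other group. The groups were far apart, and Ing1 was 42.5-fold lower (log2 fold change -5.41 ± 0.10 (SE), edgeR adjusted p = 5.84e-07). Gadd45a (ENSMUSG00000036390, chromosome 6) stood at 18.1, 20.6 and 16.7 CPM in Ing1 KO and at 76.1, 118 and 106 CPM in the libraries labelled Gadd45a KO. It was therefore 5.41-fold lower in Ing1 KO (log2 fold change -2.44 ± 0.19 (SE), edgeR adjusted p = 0.0069), against what the label would give. Its call was lost when Gadd45a KO replicate 3 was left out. Which part of the gene was deleted is not stated in the labels, and reads from outside that part would not check them. The group is therefore named by its label throughout.

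No other member of either family passed the test. Ing2, the nearest relative of Ing1, stood at 10.8, 11.2 and 11.4 CPM in Ing1 KO against 9.14, 8.74 and 9.68 CPM (log2 fold change 0.28, edgeR adjusted p = 0.0536). Ing3 and Ing4, which belong to histone acetyltransferase complexes, had log2 fold changes of -0.22 and -0.23, with libraries that did not overlap. Gadd45b and Gadd45g, the stress-induced relatives of Gadd45a, overlapped between the groups, at 33.2 to 38.4 against 34.7 to 40.5 CPM and 83.5 to 100 against 85.1 to 101 CPM.

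**Figure D1:**
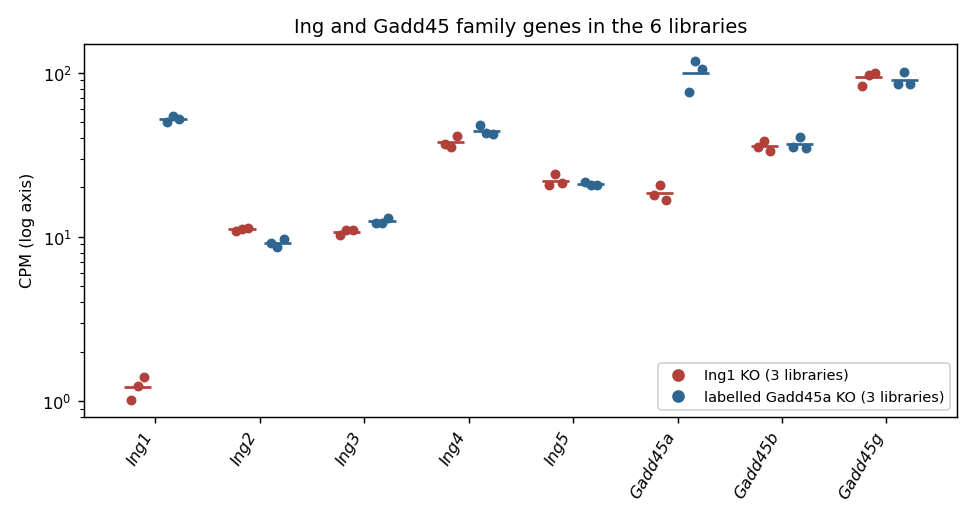
CPM of Ing1, Gadd45a and their relatives in each library (log axis; points are libraries, lines are group means, red for Ing1 KO and blue for the libraries labelled Gadd45a KO). Ing1 lies at 1.01 to 1.41 CPM in Ing1 KO, and Gadd45a lies at 76.1 to 118 CPM in the libraries labelled as lacking it; the relatives lie close together.

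Of 14766 genes tested, 1271 (8.61%) were called, 651 (4.41%) higher and 620 (4.2%) lower in Ing1 KO. Most changes were small: the median log2 fold change was 0.33 among genes called higher and -0.48 among those called lower, and 213 genes (1.44%) differed by at least 2-fold, 82 (0.555%) higher and 131 (0.887%) lower. All 1271 had libraries that did not overlap between the groups, which was also so for 5070 genes (34.3%) of all tested, 2515 higher (17%) and 2555 lower (17.3%). The number of calls depended on single libraries. It was 20 without Gadd45a KO replicate 3, 237 without Gadd45a KO replicate 2, 458 without Gadd45a KO replicate 1 and 219 without Ing1 KO replicate 2, while it was 1634 without Ing1 KO replicate 1 and 1551 without Ing1 KO replicate 3. Each of the 1271 kept its sign in all 6 of these fits. Libraries that do not overlap leave almost no room for a reversal, so this does not measure stability. Of the 109 called genes that the naming rule gives, 7, 36 and 52 were still called without Gadd45a KO replicates 3, 2 and 1, and 39 without Ing1 KO replicate 2. The single-gene calls below carry this dependence.

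**Figure D2:**
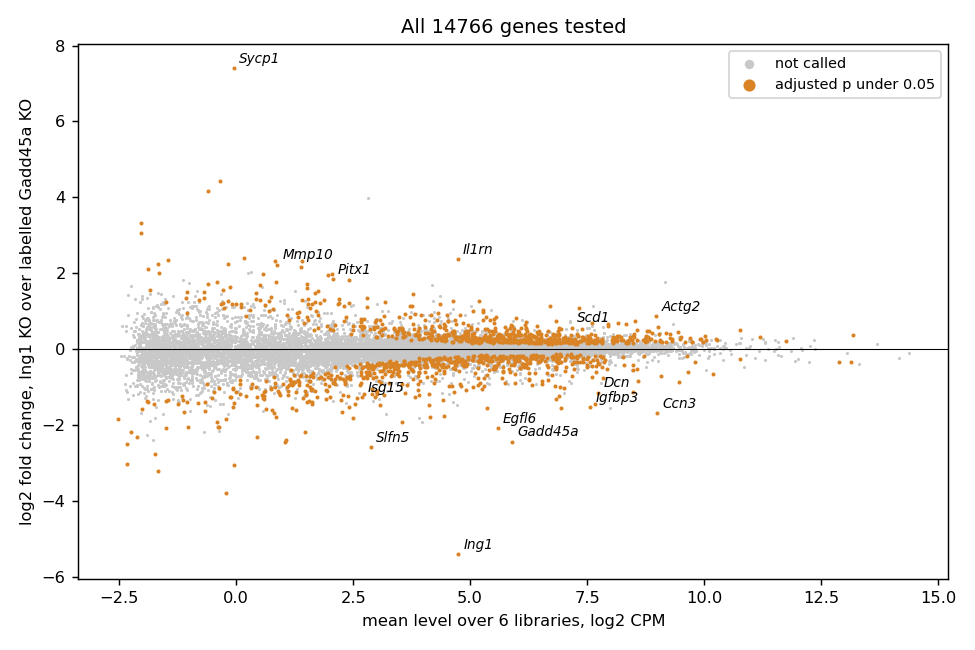
Log2 fold change of Ing1 KO over the libraries labelled Gadd45a KO against mean level (log2 CPM) for all 14766 genes tested, with the 1271 called genes in orange. Ing1 lies lowest at -5.41, and Sycp1 highest at 7.40.

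Many interferon-induced genes were lower in Ing1 KO. Interferons are antiviral cytokines that act through JAK kinases and STAT factors. The activated factors, joined by IRF9, bind a short promoter element of their target genes. Of 32 tested response genes, 16 were called lower and none higher, against 4.2% of all genes called lower, and their median log2 fold change was -0.69 against -0.00 over all genes. A negative log2 fold change was found for 31 of the 32, the exception being Herc6 at 0.06. Without Gadd45a KO replicate 3 only 2 members were called, without replicates 2 and 1 of that group 8 and 11, and without Ing1 KO replicate 2 it was 7; the list's median lay between -0.73 and -0.59 over these fits.

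The promoters of response genes are shown because the element bound by these factors can be read in them. The motif searched was GAAA, any 2 bases, GAAA, on either strand, in the 250 bases before each gene's start (RefSeq, GRCm38.p6). It was present in 7 of the 11 called response genes with a promoter sequence (63.6%), in 4 of the 14 that were tested and not called (28.6%), in 25 of 469 genes called lower (5.33%), in 10 of 500 called higher (2%) and in 274 of 10805 tested genes (2.54%). These letters are a description of the sequence, and binding was not measured. Below are the 150 bases before the start of 5 called genes that hold the whole motif in that stretch, with the motif, or motifs that overlap, in capitals; the second and last show it as TTTC on the printed strand.
Isg15, chr4:156200819-156200968, minus strand: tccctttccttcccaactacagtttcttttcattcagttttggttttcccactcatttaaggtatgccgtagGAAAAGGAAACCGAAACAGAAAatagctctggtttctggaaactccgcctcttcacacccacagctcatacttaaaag
Ifit1, chr19:34640739-34640888, plus strand: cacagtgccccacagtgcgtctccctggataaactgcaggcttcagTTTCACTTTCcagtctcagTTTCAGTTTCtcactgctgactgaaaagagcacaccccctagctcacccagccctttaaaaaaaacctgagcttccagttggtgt
Oas1a, chr5:120907526-120907675, minus strand: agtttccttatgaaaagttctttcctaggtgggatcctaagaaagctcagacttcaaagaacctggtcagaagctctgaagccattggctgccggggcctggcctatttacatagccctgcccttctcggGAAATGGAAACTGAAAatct
Bst2, chr8:71537473-71537622, minus strand: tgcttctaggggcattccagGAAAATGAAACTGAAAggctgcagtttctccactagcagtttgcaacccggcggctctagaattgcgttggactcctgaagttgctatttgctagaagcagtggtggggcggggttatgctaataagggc
Gbp3, chr3:142559894-142560043, plus strand: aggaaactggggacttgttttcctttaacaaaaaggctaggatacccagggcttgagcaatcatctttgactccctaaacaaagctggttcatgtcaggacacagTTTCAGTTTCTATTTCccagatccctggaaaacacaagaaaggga

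The called response genes, of which all but the first 3 were chosen after their values were seen, were lower in each Ing1 KO library than in any library of the other group. This lack of overlap held for all 1271 called genes. Slfn5, an interferon-induced Schlafen gene that overlaps an antisense gene, stood at 2.8, 1.57 and 1.92 CPM against 13.3, 12.1 and 12.4 CPM. It was 6.01-fold lower (log2 fold change -2.59 ± 0.19 (SE), edgeR adjusted p = 0.00285) and stayed called when any 1 of the 6 libraries was left out. Lgals3bp, a secreted glycoprotein, stood at 59.3, 50.7 and 54.4 CPM against 104, 105 and 105 CPM. It too stayed called when any 1 of the 6 libraries was left out (log2 fold change -0.94 ± 0.06 (SE), edgeR adjusted p = 0.00102). Xaf1, which promotes cell death, stood at 3.24, 2.64 and 2.99 CPM against 7.26, 6.38 and 6.69 CPM (edgeR adjusted p = 0.00563). Isg15, a ubiquitin-like protein attached to other proteins, stood at 3.13, 3.95 and 4.33 CPM against 11, 7.21 and 9.08 CPM. Its 2.39-fold difference was larger than the spread within either group (edgeR adjusted p = 0.0147). Usp18, the enzyme that removes it and restrains the interferon receptor, stood at 0.855, 1.02 and 1.03 CPM against 2.17, 1.92 and 2.18 CPM. Bst2, which tethers budding viruses to the cell, stood at 13.9, 14.3 and 13.4 CPM against 24.8, 21 and 22.3 CPM, and Gbp3, a GTPase, was 2.13-fold lower. Ifit1, which binds viral RNA, stood at 1.19, 1.28 and 2.13 CPM against 4.72, 3.18 and 3.5 CPM. It was 2.46-fold lower, whereas Ifit3 overlapped between the groups (log2 fold change -0.43, edgeR adjusted p = 0.413). Oasl2 was 3.14-fold and Oas1a 2.54-fold lower. Reads of the Oas, Ifit, Gbp and Slfn families can fall on near-identical copies, so their counts are uncertain.

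Part of the pathway that drives these genes was lower too. Of 25 tested signalling genes 7 were called lower and none higher, against 4.2% of all genes called lower, with a median log2 fold change of -0.13; 4 of the 7 are transcription factors and 2 are sensors of foreign RNA. Irf9 stood at 22.7, 22 and 21.6 CPM against 30.2, 26.8 and 31.4 CPM (edgeR adjusted p = 0.0175), and the kinase gene Jak2 was 1.38-fold lower. Stat2, Irf7, Dhx58 and Ifih1, chosen after their values were seen, were called too. None of the 4 interferon receptor genes passed the test: Ifnar1 stood at 107, 107 and 108 CPM against 110, 110 and 115 CPM. Without Gadd45a KO replicate 3 none of the 25 was called, without Ing1 KO replicate 2 it was 1, without replicates 1 and 2 of the other group 4 and 2.

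Antigen presentation by class I molecules, which interferon raises, showed the same direction in fewer genes. Of 16 tested members 4 were called lower and none higher (median log2 fold change -0.15), against 4.2% of all genes called lower. A negative log2 fold change was found for 13 and a positive one for 3. The list's sum overlapped between the groups, at 4515, 4417 and 4399 CPM against 4265, 4523 and 4561 CPM. Over the fits that leave out 1 library 0 to 5 members were called lower, with 0 without Gadd45a KO replicate 2. Tap1, the peptide transporter, stood at 12.4, 12.5 and 11.6 CPM against 16.8, 16.4 and 15.7 CPM (log2 fold change -0.42 ± 0.06 (SE), edgeR adjusted p = 0.0132), and overlaps Psmb9 on the opposite strand. H2-T23, a class I heavy chain, was 1.35-fold and Tapbp, which loads peptides, 1.14-fold lower. The summed response genes stood at 603, 548 and 562 CPM in Ing1 KO replicates 1 to 3 and at 752, 736 and 742 CPM in the libraries labelled Gadd45a KO, beside macrophage and blood sums of 518, 455 and 807 CPM and of 181, 702 and 686 CPM. The part of macrophage content in the interferon result was not tested.

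**Figure D3:**
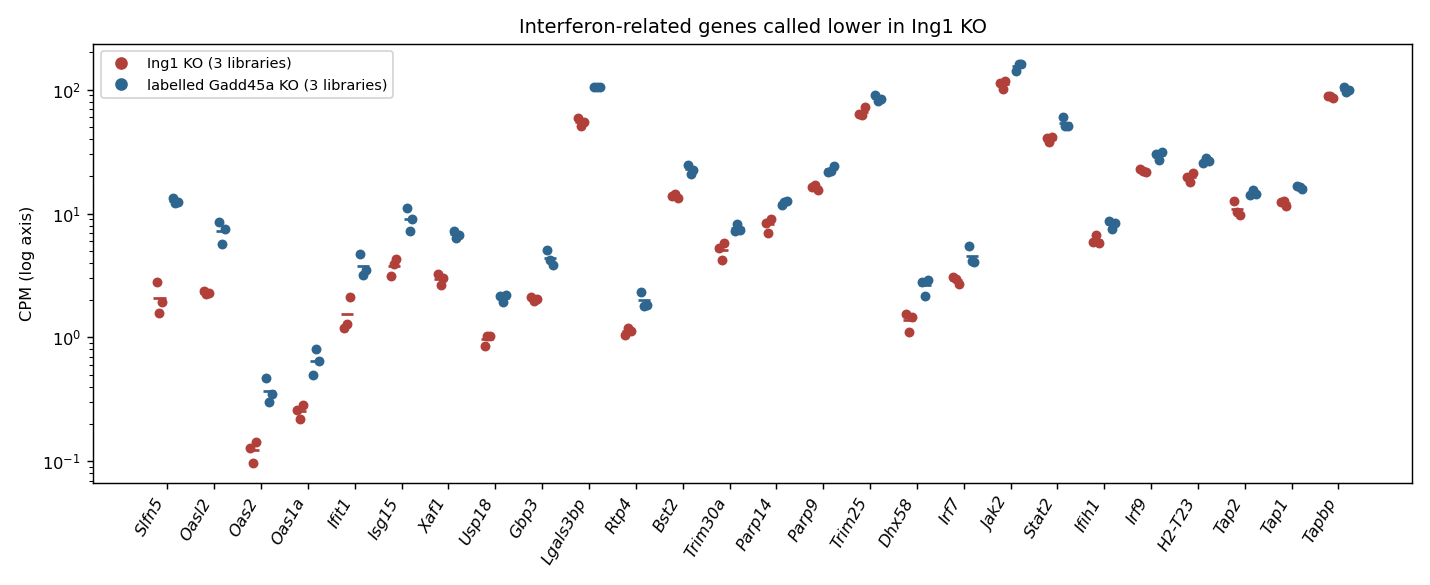
CPM in each library (log axis) of genes called lower in the lists of interferon response, interferon signalling and class I presentation; points are libraries and lines are group means. For each gene the 3 red points of Ing1 KO lie below the 3 blue points of the libraries labelled Gadd45a KO, which the call itself favours.

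Many genes of sterol and fatty acid synthesis were higher in Ing1 KO, by small amounts. The cell makes cholesterol and its fatty acids under the control of the SREBP factors, which raise the enzymes of both routes when sterol is low. Of 29 tested members 16 were called higher and none lower, against 4.41% of all genes called higher, and all 29 had a positive log2 fold change, with a median of 0.31. By role, 10 of 16 sterol enzymes, 5 of 6 fatty acid enzymes, 1 of 4 regulators and none of 3 uptake genes were called. Scd1, which makes monounsaturated fatty acids, stood at 176, 176 and 163 CPM against 125, 108 and 118 CPM (log2 fold change 0.56 ± 0.06 (SE), edgeR adjusted p = 0.00713). Its 1.47-fold difference was the largest of the list. Lss, which closes the sterol rings, stood at 69.9, 77 and 72.6 CPM against 57.7, 53.6 and 56.9 CPM (edgeR adjusted p = 0.00966). Srebf2, the sterol SREBP gene, was named after its values were seen and was 1.17-fold higher, while Srebf1 overlapped between the groups at 91.5 to 96.2 against 88.4 to 93.5 CPM. None was called without Gadd45a KO replicate 3, and 6, 6 and 9 were called without Gadd45a KO replicate 2, Ing1 KO replicate 2 and Gadd45a KO replicate 1. The list's median stayed between 0.27 and 0.35 in these fits.

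Fibroblasts raise genes of the contractile apparatus when they turn towards myofibroblasts. Of 23 tested members 10 were called higher in Ing1 KO and none lower, against 4.41% of all genes called higher. The median log2 fold change was 0.22, and none of the 4 transcription factors of the list was called. Actg2, a smooth muscle actin, stood at 557, 706 and 683 CPM against 339, 370 and 355 CPM (log2 fold change 0.87 ± 0.09 (SE), edgeR adjusted p = 0.00752). Cnn1, a calponin that binds actin, stood at 335, 400 and 335 CPM against 212, 226 and 220 CPM (log2 fold change 0.70 ± 0.07 (SE), edgeR adjusted p = 0.00713). Tpm2, a tropomyosin, was 1.35-fold higher, at 643 to 705 against 486 to 507 CPM. In each of these genes the lowest Ing1 KO library lay above the highest of the other group. All 1271 called genes lacked overlap, and 17% of all genes tested were higher without overlap. Under upper quartile scaling 6 members were called, without Gadd45a KO replicate 3 none, without Gadd45a KO replicates 1 and 2 and Ing1 KO replicate 2 there were 4 each, and without Ing1 KO replicate 3 there were 5. Markers of mural cells, which share contractile genes, gave 1 call of 7 tested, higher (14.3%, against 4.41% of all genes). It was Cspg4, at 128, 150 and 134 CPM against 109, 96.1 and 88.7 CPM. The sum of the mural markers was 582, 728 and 762 CPM against 585, 486 and 503 CPM. Its part in the contractile result was not tested. Of 6 tested skeletal muscle markers 1 was called higher and 1 lower (16.7% each, against 4.41% and 4.2% of all genes). Acta1 was the higher one, at 40.5, 66 and 46.6 CPM against 25.3, 27 and 25.8 CPM. Myh3, with 5, 2 and 0 reads against 24, 27 and 17, was the lower one. The groups did not overlap in 1 higher and 3 lower members, against 17% and 17.3% of all genes. The list's sum was 116, 136 and 85 CPM against 51.4, 69 and 55.3 CPM.

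Of 25 tested genes of TGF-beta, a growth factor that raises contractile and matrix genes, 2 were called higher and 1 lower, a share near the 8.61% of all genes. Tgfb2, a ligand, stood at 42, 45.8 and 36.9 CPM against 28.2, 30.3 and 28.3 CPM (log2 fold change 0.52 ± 0.08 (SE), edgeR adjusted p = 0.0157). Ltbp1, which holds the latent ligand in the matrix, stood at 291, 299 and 311 CPM against 207, 182 and 182 CPM (log2 fold change 0.66 ± 0.06 (SE), edgeR adjusted p = 0.00487). Both were higher in Ing1 KO, whereas the receptor gene Tgfbr2 was lower, at 344, 276 and 299 CPM against 396, 429 and 405 CPM (edgeR adjusted p = 0.0279).

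Targets of p53, the factor that halts or kills cells with damaged DNA, were higher in part. Of 27 tested members 8 were called higher and none lower (median log2 fold change 0.14), against 4.41% of all genes called higher. Of the 8, 4 are genes of growth arrest, 2 of cell death and 2 regulators. Mdm2, the ligase that degrades p53, stood at 126, 128 and 130 CPM against 103, 95.8 and 100 CPM (log2 fold change 0.36 ± 0.04 (SE), edgeR adjusted p = 0.00743). Pmaip1, a cell death gene, stood at 51.6, 66.6 and 55.6 CPM against 33.3, 32.4 and 34.2 CPM, and was 1.74-fold higher (edgeR adjusted p = 0.00874). Btg2, an inhibitor of proliferation, was 1.31-fold higher. Trp53 overlapped between the groups, at 106 to 121 against 110 to 118 CPM. Other targets lay on the opposite side without passing the test: Ddb2, a DNA repair gene, stood at 2.9, 2.69 and 2.9 CPM against 4.59, 3.6 and 3.91 CPM (edgeR adjusted p = 0.0572). Gadd45a is itself a p53 target and is not in this list. Without Gadd45a KO replicate 3 none was called, and without Gadd45a KO replicate 2 and Ing1 KO replicate 2 there were 3 and 4.

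Among genes of the cell cycle, inhibitors differed in both directions and mitosis genes leaned higher. Cdkn2a, which encodes the inhibitors Ink4a and Arf, stood at 52.3, 61.1 and 53.5 CPM against 39.1, 37 and 36.3 CPM, and was 1.48-fold higher (log2 fold change 0.57 ± 0.07 (SE), edgeR adjusted p = 0.00874). Cdkn1c, another inhibitor, was 1.91-fold lower, at 78.1, 56.6 and 57.3 CPM against 137, 110 and 119 CPM (edgeR adjusted p = 0.0255). Of 29 mitosis genes 3 were called higher (10.3%, against 4.41% of all genes) and none lower, and 28 had a positive log2 fold change (median 0.18). Their groups did not overlap in 22 genes that were higher, against 17% of all genes. Kif20a, a spindle motor, stood at 50, 55 and 49.3 CPM against 44.2, 44.2 and 41 CPM (edgeR adjusted p = 0.0373). Of 30 replication genes 1 was called, higher (3.33%, against 4.41% of all genes). It was Gmnn, which restrains licensing, at 12.1, 12.4 and 12.3 CPM against 8.72, 9.45 and 9.96 CPM. Of the 30, 23 had a positive log2 fold change (median 0.12). Immediate early genes, the first to answer growth factors and stress, gave 2 calls of 27, both higher (7.41%, against 4.41% of all genes). Their log2 fold changes were positive in 25 (median 0.28). DESeq2 called 10 of them, and so did the fit of all 12 libraries. Nr4a1 stood at 62.2, 61.1 and 65.4 CPM against 48.2, 53.1 and 51 CPM (log2 fold change 0.31 ± 0.05 (SE), edgeR adjusted p = 0.0172).

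**Figure D4:**
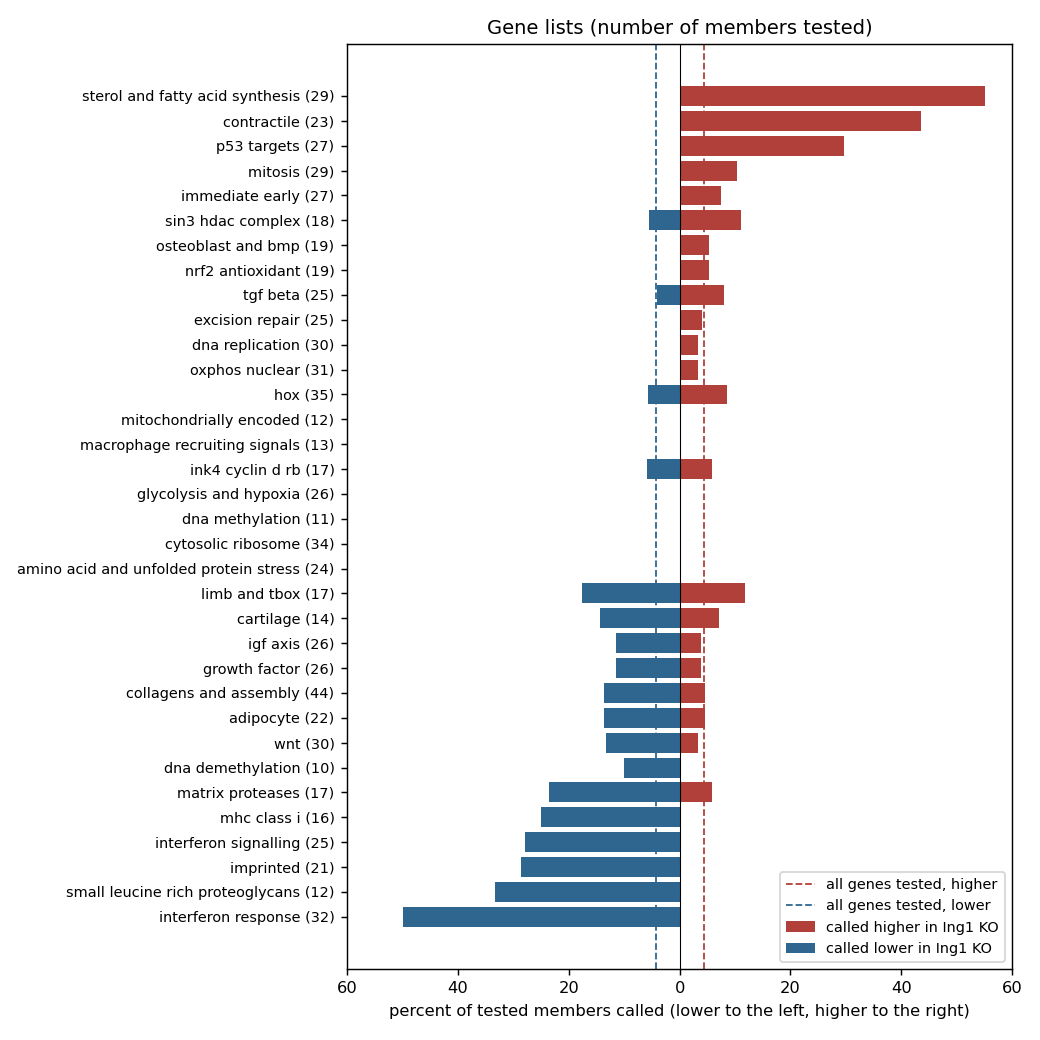
Percent of the tested members of each gene list that were called higher (right, red) and lower (left, blue) in Ing1 KO; dashed lines mark the 4.41% and 4.2% of all genes tested, and lists with at least 10 tested members are shown. Interferon response lies farthest to the left at 50%, and sterol and fatty acid synthesis farthest to the right at 55.2%.

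Among small leucine-rich proteoglycans, which coat collagen fibrils, 4 of 12 tested members were called lower in Ing1 KO and none higher. Over all genes 4.2% were called lower. The list's median log2 fold change was -0.68. In 8 the libraries did not overlap, all lower, against 17.3% of all genes, and none of the 5 class II members passed the test. Dcn (decorin) stood at 171, 109 and 120 CPM against 289, 316 and 280 CPM (log2 fold change -1.15 ± 0.18 (SE), edgeR adjusted p = 0.0233). Podn (podocan) stood at 92.8, 72.6 and 89.1 CPM against 171, 172 and 177 CPM (log2 fold change -1.03 ± 0.09 (SE), edgeR adjusted p = 0.0052). Bgn (biglycan), the closest relative of decorin, was 1.26-fold lower, at 6316 to 6962 against 8378 to 8551 CPM. The called count was 0 without Gadd45a KO replicate 3, 1 without Gadd45a KO replicate 1 or 2 or Ing1 KO replicate 2, and 7 without Ing1 KO replicate 1, and DESeq2 called 8.

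Other matrix genes went both ways. Of 44 genes of collagens and matrix assembly 2 were called higher (4.55%) and 6 lower (13.6%), against 4.41% and 4.2% of all genes. The list's median log2 fold change was -0.05. Fn1 (fibronectin) was 1.3-fold higher, at 9949, 11129 and 10550 CPM against 8377, 8106 and 7903 CPM (log2 fold change 0.38 ± 0.06 (SE), edgeR adjusted p = 0.0189). Loxl3, which cross-links collagen, stood at 386, 387 and 411 CPM against 213, 296 and 246 CPM (edgeR adjusted p = 0.0276). On the lower side, Egfl6, a secreted protein with EGF repeats, stood at 22.1, 10.1 and 22.7 CPM against 74.7, 74.7 and 83.6 CPM. It was 4.24-fold lower (log2 fold change -2.08 ± 0.30 (SE), edgeR adjusted p = 0.0213). Fbln1 (fibulin) was 1.69-fold, Mfap4 of elastic fibres 2.19-fold, Adamts2, which trims procollagen, 1.48-fold and Postn (periostin) 1.26-fold lower. Of 17 matrix collagen genes only Col6a2, named after its value was seen, was called. Among 17 proteases and inhibitors 1 was called higher (5.88%) and 4 lower (23.5%), against 4.41% and 4.2% of all genes. Mmp10, a metalloproteinase, was the higher one, at 3.24, 3.05 and 2.8 CPM against 0.365, 0.731 and 0.834 CPM (log2 fold change 2.22 ± 0.27 (SE), edgeR adjusted p = 0.00874). Timp3, an inhibitor of metalloproteinases, was 1.82-fold lower, at 450, 439 and 609 CPM against 926, 883 and 912 CPM, and Reck, a membrane inhibitor, was 1.39-fold lower. The metalloproteinases Mmp23 and Mmp11, the latter named after its values were seen, were 1.22-fold and 1.63-fold lower.

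Imprinted genes, which are expressed from the copy of 1 parent and of which many act on fetal growth, were lower or not called. Of 21 tested members 6 were called lower, 4 listed as paternally and 2 as maternally expressed, and none higher (median log2 fold change -0.30). Over all genes 4.2% were called lower. Plagl1, a zinc finger factor, stood at 91.5, 67.3 and 82.3 CPM against 193, 141 and 150 CPM (2.01-fold lower, edgeR adjusted p = 0.0259). Dcn and Cdkn1c, given above, are the 2 listed as maternally expressed, and Dcn is also counted among the proteoglycans. Whether the members are expressed from 1 copy in these fibroblasts was not measured. Dlk1, named after its values were seen, stood at 65.3, 57.4 and 73.8 CPM against 220, 122 and 146 CPM. The abundant members H19 and Igf2 overlapped between the groups, and both were lowest in Ing1 KO replicate 3, at 1549 and 507 CPM. None was called without Gadd45a KO replicate 2 or 3 or without Ing1 KO replicate 2, and 2 without Gadd45a KO replicate 1 or without a filter on low counts.

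Growth factor pathways were called in part, more often lower than higher. Igfbp3, which binds insulin-like growth factors outside the cell, stood at 101, 75.5 and 115 CPM against 328, 230 and 283 CPM. It was 2.88-fold lower (log2 fold change -1.53 ± 0.20 (SE), edgeR adjusted p = 0.018), while the receptor gene Igf1r was 1.15-fold higher; 3 of 26 members of this axis were called lower and 1 higher. Among other growth factors and receptors 3 of 26 were called lower and 1 higher. In both lists 11.5% were called lower and 3.85% higher, against 4.2% and 4.41% of all genes. The groups did not overlap in 12 members of the first list and 15 of the second, against 34.3% of all genes. Kitl, the ligand of the receptor KIT, stood at 22, 15.8 and 18.5 CPM against 36.7, 35.3 and 38.4 CPM (log2 fold change -0.97 ± 0.11 (SE), edgeR adjusted p = 0.00966). Fgf21, a hormone of energy use, stood at 2.38, 2.71 and 2.63 CPM against 4.86, 5.04 and 4.84 CPM (log2 fold change -0.93 ± 0.11 (SE), edgeR adjusted p = 0.00874). Pdgfra, the fibroblast receptor for PDGF, was 1.64-fold lower, at 460, 322 and 455 CPM against 675, 674 and 676 CPM. Hbegf, a ligand of the EGF receptor, was 1.59-fold higher.

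In the Wnt pathway, 4 of 30 tested members were called lower (13.3%) and 1 higher (3.33%), against 4.2% and 4.41% of all genes. All 5 are receptors or targets. Nkd1, a target that feeds back to inhibit the pathway, stood at 8.88, 8.48 and 10.8 CPM against 19.8, 20.2 and 19.8 CPM (log2 fold change -1.08 ± 0.09 (SE), edgeR adjusted p = 0.00388), and stayed called when any 1 of the 6 libraries was left out. Lgr5, a receptor that strengthens the signal, stood at 115, 73.3 and 141 CPM against 330, 289 and 280 CPM (log2 fold change -1.45 ± 0.24 (SE), edgeR adjusted p = 0.029). Lrp5, a co-receptor, was 1.24-fold lower and Fzd7, a receptor, 1.12-fold higher. Genes of fat cells gave 3 lower and 1 higher call of 22 tested (13.6% and 4.55%, against 4.2% and 4.41% of all genes). Lpl, which releases fatty acids from lipoproteins, stood at 64.3, 42.6 and 81.3 CPM against 185, 178 and 188 CPM (log2 fold change -1.55 ± 0.23 (SE), edgeR adjusted p = 0.0221). Both Cebpa and Ebf1, adipocyte transcription factors, were 1.62-fold and 1.36-fold lower, while Plin4, a lipid droplet protein, was 2.3-fold higher at about 1 CPM.

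Cartilage genes varied widely between the Ing1 KO libraries. Of 14 tested members 1 was called higher (7.14%, against 4.41% of all genes) and 2 lower (14.3%, against 4.2%). The list's median log2 fold change was 0.52. Acan, the cartilage proteoglycan aggrecan, stood at 9.27, 26.9 and 3.45 CPM against 1.17, 0.58 and 0.741 CPM. The groups did not overlap, yet it missed the threshold (log2 fold change 3.99, edgeR adjusted p = 0.0538). Col2a1, the main cartilage collagen, stood at 43.5, 29.9 and 9.65 CPM against 11.3, 7.26 and 7.16 CPM, and its replicate 3 fell within the range of the other group (edgeR adjusted p = 0.123). Col10a1, a collagen of hypertrophic cartilage that overlaps Nt5dc1, was called at 3.24, 5.89 and 3.93 CPM against 1.17, 1.03 and 1.76 CPM (log2 fold change 1.71 ± 0.29 (SE), edgeR adjusted p = 0.0203). Matn4 and Col9a2, also matrix genes, were 2.92-fold and 3.06-fold lower. Sox9, the master factor of cartilage, overlapped at 25 to 31.2 against 21.1 to 31.6 CPM. Without Ing1 KO replicate 3, 6 members were called higher, and the median log2 fold change was 0.77 against 0.19 without Ing1 KO replicate 1. Bone genes showed a single library as well: Ibsp, a bone matrix protein, stood at 32.4 CPM in Ing1 KO replicate 1 and at 0 in the other 5 libraries. Of 19 tested bone genes 1 was called, higher (5.26%, near the 4.41% of all genes). It was Msx2, a transcription factor, at 2.38, 2.64 and 1.96 CPM against 0.966, 1.01 and 1.34 CPM. Spp1 (osteopontin) stood at 1415, 771 and 481 CPM against 128, 372 and 278 CPM and was not called (edgeR adjusted p = 0.104).

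Genes that mark position along the limb and body axis differed in part. Pitx1, which specifies the hindlimb, stood at 7.33, 6.25 and 6.01 CPM against 2.4, 2.02 and 1.02 CPM (log2 fold change 1.85 ± 0.28 (SE), edgeR adjusted p = 0.018). Tbx4, which acts in the same limb, stood at 7.77, 7.07 and 4.98 CPM against 1.83, 2.24 and 0.926 CPM (log2 fold change 1.99 ± 0.33 (SE), edgeR adjusted p = 0.0213). Of 17 limb factors these 2 were called higher, and Twist1, Meis1 and Tbx15 were called lower, by 1.4-fold, 1.16-fold and 1.26-fold. That is 11.8% of the list higher and 17.6% lower, against 4.41% and 4.2% of all genes. Among 35 Hox genes 3 were called higher (8.57%) and 2 lower (5.71%), against 4.41% and 4.2% of all genes. Hoxa13, of the end of the limb, stood at 0.932, 0.678 and 1.41 CPM against 0.235, 0.328 and 0.347 CPM (edgeR adjusted p = 0.0293), and Hoxd13 at 0.881, 1.26 and 1.99 CPM against 0.47, 0.479 and 0.371 CPM. Hoxd8 was 1.96-fold lower and overlaps an antisense gene. The labels do not say which parts of the embryos were taken, and the part of tissue composition in these values was not tested.

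Markers of cell types went both ways. Of 13 fibroblast markers, Fn1, Thy1 and S100a4 were called higher (23.1%, against 4.41% of all genes). Postn, Pdgfra and Dpt were called lower (23.1%, against 4.2%). In 10 of the 13 the groups did not overlap, against 34.3% of all genes. Thy1, a surface protein, stood at 1217, 1353 and 1420 CPM against 1100, 1104 and 1126 CPM, and Dpt, a matrix protein, at 171, 144 and 177 CPM against 278, 222 and 241 CPM. Of 8 tested endothelial markers 5 had a negative and 3 a positive log2 fold change (median -0.02), and their sum was 45.3 to 52.8 CPM against 45.9 to 53 CPM. The 1 that was called (12.5%, against 4.41% of all genes), Emcn, was higher, at 1.17, 1.43 and 1.13 CPM against 0.522, 0.68 and 0.347 CPM. Of 5 tested epithelial markers Krt7 was called higher (20%, against 4.41% of all genes), and 4 had a positive log2 fold change (median 0.88). The list's sum was 13.8, 12.5 and 9.87 CPM against 6.94, 8.16 and 5.93 CPM. Epcam, which defines epithelium, was at 0.0239 to 0.0695 CPM in all 6 libraries and was not tested. Of 11 tested markers of Schwann cells and neurons 6 had a negative and 5 a positive log2 fold change (median -0.23). The 2 that were called, Rbfox1 and Stmn2, were higher (18.2%, against 4.41% of all genes). Rbfox1 stood at 5.67, 6.22 and 3.74 CPM against 2.77, 1.84 and 1.78 CPM, and Stmn2 at 17.5, 23.5 and 13.1 CPM against 10.2, 7.08 and 7.39 CPM. The part of cell composition in the results was not tested.

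Genes of the machinery that Ing1 and Gadd45a work with differed by small amounts where called. Of 18 members of the Sin3 deacetylase complex 2 were called higher (11.1%, against 4.41% of all genes) and 1 lower (5.56%, against 4.2%). In 11 of the 18 the groups did not overlap, against 34.3% of all genes. Sin3a, its scaffold, stood at 77.9, 77.6 and 80.5 CPM against 69, 67.2 and 67.5 CPM (log2 fold change 0.21 ± 0.03 (SE), edgeR adjusted p = 0.018), and Ogt, an associated sugar transferase, was 1.22-fold lower. Of 10 tested genes of DNA demethylation Tet1 was called, at 14.2 ± 1.2 CPM against 18.9 ± 1.3 CPM (SD, n = 3 libraries each; the groups did not overlap). It was 1.33-fold lower (log2 fold change -0.41 ± 0.08 (SE), edgeR adjusted p = 0.029). Tdg, the glycosylase that removes oxidised bases, overlapped at 18.7 to 22.8 against 19.4 to 21.2 CPM. None of 11 genes of DNA methylation was called, with Dnmt1 at 96.4 to 101 against 88.3 to 97.8 CPM. Of 25 excision repair genes Rad23b was called, 1.18-fold higher. Lists of this size would hold few or no calls at the 8.61% of all genes.

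Basic metabolism and protein synthesis gave almost no calls, against 8.61% of all genes. Lists as short as 12 or 13 genes would hold few or no calls at that share. None was called among 34 ribosomal protein genes (median log2 fold change 0.00), 26 of glycolysis and hypoxia (0.12), 24 of amino acid and unfolded protein stress (-0.01), 12 encoded in mitochondria (0.05) and 13 signals that attract macrophages (-0.04). Of 31 nuclear genes of oxidative phosphorylation Atp5b was called, 1.15-fold higher, and of 19 NRF2 antioxidant genes Txnrd1, 1.22-fold higher. Of the 31, 26 had a positive log2 fold change (median 0.06). In 13 of the 19 the groups did not overlap, 9 higher and 4 lower, against 34.3% of all genes. Counts of ribosomal protein genes are uncertain because of their pseudogene copies.

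**Figure D5:**
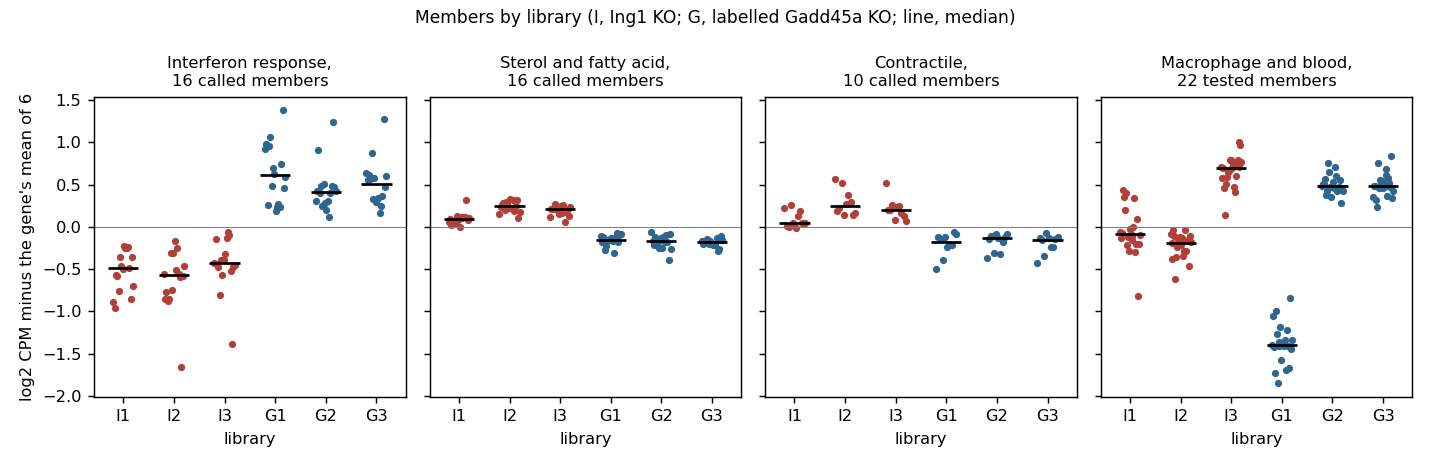
Log2 CPM of each list member in each library, less that member's mean over the 6 libraries; I1 to I3 are Ing1 KO and G1 to G3 the libraries labelled Gadd45a KO, points are genes and black lines medians. The first 3 panels show called members, which were chosen for this difference; in the last panel the 22 macrophage and blood markers are lowest in replicate 1 of the libraries labelled Gadd45a KO and highest in Ing1 KO replicate 3.

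Beyond these lists, the genes with the largest differences at 2 CPM or more were of varied function. Il1rn, the antagonist of the interleukin-1 receptor, stood at 66.9, 32.5 and 34.7 CPM against 5.25, 11 and 9.49 CPM. It was 5.18-fold higher in Ing1 KO (log2 fold change 2.37 ± 0.41 (SE), edgeR adjusted p = 0.0298). Itih2, a hyaluronan-binding protein, and Cbr2, a carbonyl reductase, were 5.04-fold and 3.89-fold higher. Krt7, a keratin, was 3.03-fold higher, Slitrk5, a neuronal membrane protein, 2.91-fold, Ppbp, a platelet chemokine, 2.79-fold and Smoc1, a BMP antagonist, 2.72-fold. Several of these were uneven within Ing1 KO: Itih2 stood at 6.24, 5.13 and 1.94 CPM and Cbr2 at 7.8, 7.63 and 3.06 CPM, with replicate 3 lowest. On the lower side, Ccn3, a secreted matricellular protein, stood at 259, 207 and 256 CPM against 784, 788 and 765 CPM. It was 3.24-fold lower (log2 fold change -1.69 ± 0.09 (SE), edgeR adjusted p = 0.00102) and stayed called when any 1 of the 6 libraries was left out. Il31ra, a cytokine receptor, was 4.58-fold, Kbtbd11 5.44-fold, Gm15446 5.24-fold, Cyp4b1, a fatty acid hydroxylase, 3.76-fold, Clec11a, a bone growth factor, 3.52-fold, Chodl 3.43-fold and Frem1, a basement membrane protein, 3.37-fold lower. Cyp4b1 and Chodl were uneven as well, with Ing1 KO replicate 3 at 7.85 and 12.4 CPM against 3.21 to 3.46 and 5.38 to 6.16 CPM in the other 2.

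A set of 19 genes, 9 higher and 10 lower, was called in the 6 libraries and again without each of them in turn; it was picked by that count after the values were seen. Besides Ing1, Slfn5, Ccn3, Nkd1 and Lgals3bp, the lower genes were Megf6, Adamts15, Fut10, Efs and A230050P20Rik. Adamts15, a protease of proteoglycans, stood at 11.6, 10 and 10.5 CPM against 22.6, 27 and 22.7 CPM, and was 2.25-fold lower. The higher genes were Mab21l2, Dio2, Rbpms2, Epha2, Ptprk, Tm4sf1, Rflnb, Cux1 and Sycp1. Ptprk, a receptor phosphatase of cell contacts, stood at 50.2, 55 and 51 CPM against 29.7, 29.3 and 27.8 CPM (log2 fold change 0.85 ± 0.05 (SE), edgeR adjusted p = 0.00102). Dio2, the enzyme that activates thyroid hormone, stood at 3.03, 2.74 and 3.14 CPM against 0.548, 0.605 and 0.625 CPM, and was 4.98-fold higher. Mab21l2, a developmental gene inside an intron of Lrba, was 3.55-fold higher. Sycp1, a protein of the synaptonemal complex that joins chromosomes in meiosis, was nearly absent from the other group. It had 68, 78 and 87 reads in Ing1 KO and 1, 0 and 0 in the libraries labelled Gadd45a KO. The ratio of summed reads, scaled by the summed library totals, was 232 (95% exact binomial interval 41.2 to 9205, for counting error only). The edgeR fit gave a 169-fold difference (edgeR adjusted p = 0.00132).

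The calls were spread over the genome, with 5.84% to 11.2% of tested genes called on each autosome and the X chromosome. Of the 20 tested genes nearest to Ing1 in gene order on chromosome 8, 2 were called, Tubgcp3 lower (1.23-fold) and Mcf2l higher (2.21-fold). Of the 20 nearest to Gadd45a on chromosome 6, E230016M11Rik, which overlaps Gadd45a on the opposite strand, was called. It had 17, 19 and 18 reads in Ing1 KO and 3, 2 and 0 in the libraries labelled Gadd45a KO, opposite in direction to Gadd45a itself (ratio 10.8, 95% exact binomial interval 4.34 to 34.5; edgeR adjusted p = 0.0191). DESeq2 did not call it, and it was called in 3 of the 6 fits that leave out a library. The kit keeps no strand information, so reads of such a pair cannot be told apart where they overlap. Of the 109 called genes that the naming rule gives, 38 overlap an annotated gene on the opposite strand and 22 one on the same strand, which limits their counts in the same way; among them are Col10a1 (Nt5dc1), Mfap4 (Mapk7), Timp3 (Syn3), Loxl3 (Htra2), Kif20a (Cdc23), Plin4 (Hdgfl2) and Irf9 (Rnf31).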

How the data were processed

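The values are read counts per gene, 1 table per library, as deposited by the authors. Per the submitters' processing notes, the tools were FastQC, TopHat2 2.0.9, Bowtie2 2.1.0, HTSeq 0.5.4 and DESeq with mm9 (NCBIM37); per the labels' protocols, libraries were made from 280 ng of RNA with a TruSeq v2 kit and read for 51 cycles from 1 end. Whether strand was used in counting is not stated in those notes. Each table lists 37991 genes; 5 summary lines, which held 24.24% to 24.91% of the reads in the 6 libraries, were left out, and 14361 genes had 0 counts in all 6. Chi-square per degree of freedom between replicates of a group was 6.59 to 31.26.

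The 6 libraries were fitted with edgeR 4.0.16 in R 4.3.3 (TMM scaling, filterByExpr, robust quasi-likelihood, 2 groups, two-sided, Benjamini-Hochberg), leaving 14766 genes, 4 residual degrees of freedom and a biological coefficient of variation of 9.5%. The method was tested on simulated data. SEs were derived from the log2 fold change and its F statistic. An exact permutation test of 3 against 3 libraries cannot go below p = 0.1 and was not used. Alternatives were RLE and upper quartile scaling, DESeq2 1.42.0, other filters, no robust option, a replicate block, all 12 libraries in 1 fit, and leaving out each library.

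Named genes are Ing1, Gadd45a, the 12 called genes with the largest changes per direction (mean of 2 CPM or more, no overlap, with a symbol), and up to 3 called members per direction, or 2 abundant ones, of each of 43 lists. The members and lists were chosen with earlier results of these data known, so no list was tested. Of 938 list entries 930 matched a gene. Symbols, overlaps and gene order came from GENCODE and promoters from RefSeq, both of another build than mm9. A few genes that the naming rule gives are not reported here.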

Additional observations from a re-analysis of the deposited data

How the results depend on the processing

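Against 1271 calls, 651 higher, 620 lower and 213 of at least 2-fold, DESeq2 called 1939, 1063 higher, and the fit of all 12 libraries 2126, 1024 higher and 1102 lower. Leaving out 1 library gave 20 to 1634 calls, 10 to 835 higher, 10 to 818 lower and 11 to 345 of at least 2-fold, lowest without Gadd45a KO replicate 3; that fit has fewer libraries, and why this one matters most was not tested. Correlations of same-numbered libraries' deviations were 0.004, -0.121 and 0.213, against -0.142 to 0.181 for pairs with other numbers. The labels do not say whether same-numbered libraries share a litter or day, and a shared source was not tested. With the replicate block 511 genes were called, 249 higher, 262 lower and 92 of at least 2-fold. The counts stayed within 1.5 times under RLE scaling, upper quartile scaling, no or a stricter filter and no robust option. Of 109 named called genes, 88 to 108 kept their call under these settings, 61 under the block and 102 with 12 libraries. Without 1 library 7 to 93 kept it. None reversed, but groups that do not overlap leave almost no room for that when 1 library is left out. Uncalled genes that changed sign were mt-Co1 (-0.01 under upper quartile scaling, -0.03 to 0.06 without 1 library), Rpl4 (-0.02 to 0.04 without 1 library), Hsp90b1 (0.00 under RLE and DESeq2, -0.05 to 0.02 without 1 library), Lyz2 (-0.07 to 0.64, lowest without Gadd45a KO replicate 1) and Mpeg1 (-0.20 to 0.43, lowest without Gadd45a KO replicate 1).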
